A study of Mus musculus with 6 samples.

Results

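The genes described here are 9 genes of the adipocyte lineage, chosen by name from the 29955 genes of the expression table. They are Pparg, Cebpa, Cebpb and Cebpd, which encode transcription factors, Cd36, Lpl and Fabp4, which encode proteins of fatty acid uptake and transport, Plin2, which encodes a lipid droplet coat protein, and Adipoq, which encodes the hormone adiponectin. All 9 had a row in the table, and 8 had enough reads to be tested. The table came from RNA-seq of primary mouse embryonic fibroblasts (MEFs) at passage 3, with 3 Rnf40+/+ and 3 Rnf40-/- libraries. RNF40 forms, together with RNF20, the E3 ligase that monoubiquitinates histone H2B, and the comparison asks how mRNA levels differ when it is lost. Per the methods, the MEFs came from embryos with both Rnf40 alleles floxed and an inducible Cre recombinase expressed from the Rosa26 locus, and the estrogen receptor ligand 4-hydroxytamoxifen (4-OHT) induced the deletion. The Rnf40-/- cells received 250 nM 4-OHT for 5 days and were then grown for 3 days without it. Whether the Rnf40+/+ libraries came from such MEFs left without 4-OHT or from MEFs with wild-type alleles is not stated, and nor is any 4-OHT they received, so that the deletion and the exposure cannot be told apart. The sources do not say whether the libraries of a genotype came from separate embryos or cultures, and p-values therefore measure the spread between these libraries, which may be technical. The growth medium given for the cells was ordinary serum medium, and no adipogenic inducer is named.

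Adipocytes arise from fibroblast-like precursors in a cascade of transcription factors. C/EBPβ and C/EBPδ come early after induction and activate PPARγ and C/EBPα, which then sustain each other and switch on the genes for lipid uptake, lipid storage and adipokines. Several of these genes are also used by cells that are not adipocytes, among them macrophages, which express Pparg, Cebpa, Cebpb, Cd36, Lpl and Plin2, and endothelial cells, which express Cd36 and Fabp4. The genes given for each cell type are examples and not a complete list.

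A normalized count is the number of reads of a gene divided by the size factor of its library. The libraries held between 17053436 and 26344170 reads on genes, and 3 reads, taken as the limit of detection, were worth between 2.40 and 3.58 normalized counts. The targeted gene Rnf40 had normalized counts of 1278, 1195 and 1096 in Rnf40+/+ and of 439, 519 and 487 in Rnf40-/- libraries, counted over the whole gene. Rnf40+/+ replicate 3 stood apart from the other Rnf40+/+ libraries. Its chi-square per gene against them was 28.8 and 25.9, compared with 8.35 between the other two, and its summed count of the 24 macrophage markers in the table was 17434, compared with 9544 and 10149. Rnf40+/+ replicate 1 stood apart in skeletal muscle genes, with an Acta1 count of 4449 against 1905 and 1592 in the other Rnf40+/+ libraries. The summed count of the 12 skeletal muscle markers was between 1847 and 5010 in Rnf40+/+ and between 592 and 650 in Rnf40-/- libraries. By the test described below, 2 of the 4 tested, Acta1 and Des, were lower and 0 higher, beside 24.1% and 23.3% of all genes. For the gene groups described below, a named gene whose call was lost without Rnf40+/+ replicate 1 or 3 is given with and without it. Counts of some groups are given with all libraries only. All 15 fibroblast markers had enough reads to be tested, as had 23 of the 24 macrophage markers in the table. Having enough reads does not by itself identify the cells. Col1a2, for a chain of type I collagen, had between 107178 and 128919 normalized counts in Rnf40+/+ and between 23758 and 24565 in Rnf40-/- libraries. The summed fibroblast marker count was between 738230 and 813893 in Rnf40+/+ and between 436261 and 439126 in Rnf40-/- libraries. By the test described below, 13 of the 15 were lower and 0 higher, beside 24.1% and 23.3% of all genes. Fat cell identity was not seen in these cultures: Adipoq and Retn had no read in any library, and Lep, Plin1, Cidec, Cidea and Cfd had at most 3 reads in every library.

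The genotypes were compared with limma on log2(normalized count + 1), with p-values adjusted by Benjamini-Hochberg over 16378 genes, and a gene counts here as changed when its adjusted p was under 0.05. Among the 8 adipocyte lineage genes tested, Fabp4 and Cd36 were higher in Rnf40-/- MEFs and Cebpa, Plin2 and Cebpb were lower. These 5 genes are 62.5% of those tested, beside 47.4% of all genes (23.3% higher and 24.1% lower). The same 5 were also the ones whose libraries did not overlap between the genotypes, which held for 56.5% of all genes (27.8% higher and 28.7% lower). Their median log2 fold change, over all 8 tested, was -0.02, against -0.0035 over all genes tested. The set therefore moved in both directions, and 3 of its genes, Fabp4, Cd36 and Cebpa, changed by more than 1 on the log2 scale. By the criteria of the study (mean above 15, unadjusted p under 0.05 and a log2 fold change beyond 1 in size) Fabp4 and Cd36 were higher, as were 4.25% of all genes, and Cebpa was lower, as were 5.70%. Pparg, Cebpd and Lpl did not pass the test.

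**Figure D1:**
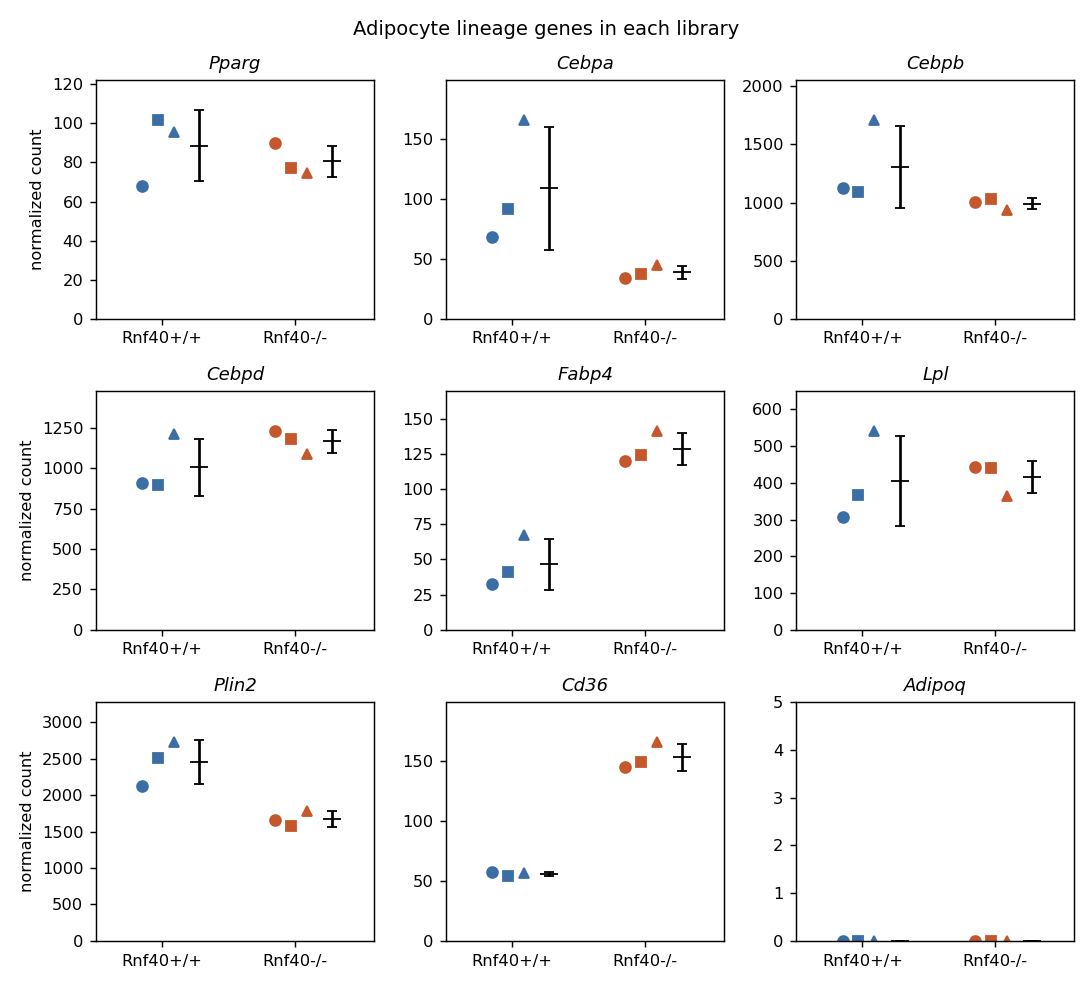
Normalized count (vertical axis, from 0) of each adipocyte lineage gene in the 3 Rnf40+/+ libraries (blue) and the 3 Rnf40-/- libraries (orange), with circles, squares and triangles for replicates 1, 2 and 3 and a black bar for the mean ± SD. Fabp4 and Cd36 lie higher in all 3 Rnf40-/- libraries, Cebpa and Plin2 lie lower, and Adipoq is at 0 throughout.

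Among the transcription factors, the genes for C/EBPα and C/EBPβ were lower in Rnf40-/- MEFs, while those for C/EBPδ and PPARγ did not pass the test. Only the farthest downstream of the 3 Pparg starts matched a C/EBP motif, and it was picked for that. Its sequence is shown with those just before the starts of Cebpa and Cebpb, which moved the same way. They are RefSeq promoters of build GRCm38.p6, each 250 bases long and read on the strand of the gene up to the base before the start. Capitals mark the motifs found on either strand, and a capital run can hold overlapping matches. The TATA box was searched for as TATAAA, the CCAAT box by the letters of its name and the GC box as GGGCGG. A loose C/EBP motif, which is not a palindrome, was searched for as TTGCNNAA, with any base at N. A shorter C/EBP core was searched for as TTGCGC. The core of the cyclic AMP response element (CRE) was searched for as TGACG and the core that nuclear receptors bind as AGGTCA. The E-box with the letters CACGTG, the AP-1 site, the DR1 element of PPAR receptors and the core of the serum response element were searched for as well and have no match in the windows printed here.
Cebpa, chr7:35119043-35119292, plus strand: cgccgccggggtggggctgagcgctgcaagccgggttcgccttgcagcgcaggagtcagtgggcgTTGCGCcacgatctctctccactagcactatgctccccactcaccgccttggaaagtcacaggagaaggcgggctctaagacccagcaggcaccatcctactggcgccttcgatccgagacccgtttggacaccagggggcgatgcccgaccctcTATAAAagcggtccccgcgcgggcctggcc
Cebpb, chr2:167688665-167688914, plus strand: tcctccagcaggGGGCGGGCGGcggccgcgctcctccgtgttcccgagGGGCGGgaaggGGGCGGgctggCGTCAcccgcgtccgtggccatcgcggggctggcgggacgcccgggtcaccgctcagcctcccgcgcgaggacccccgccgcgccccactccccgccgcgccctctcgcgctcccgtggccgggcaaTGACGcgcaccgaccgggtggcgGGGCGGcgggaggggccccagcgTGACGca
Pparg, downstream start, chr6:115421816-115422065, plus strand: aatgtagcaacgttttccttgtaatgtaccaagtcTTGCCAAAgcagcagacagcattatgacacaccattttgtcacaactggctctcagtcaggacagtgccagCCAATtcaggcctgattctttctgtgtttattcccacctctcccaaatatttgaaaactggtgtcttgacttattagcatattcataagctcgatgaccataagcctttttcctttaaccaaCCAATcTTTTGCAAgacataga
The windows differ in base composition. The Cebpb window is 81.6% G or C and holds 41 CpG dinucleotides, the Cebpa window is 66.4% G or C with 22 CpG, and the downstream Pparg window is 40.8% G or C with 2 CpG, beside medians of 52.4% and 6 CpG over 32851 mouse promoters. Cebpa has a TATA box at -30 to -25, a motif that 12.4% of all promoters hold, and the TTGCGC core, which 5.34% hold. Cebpb has no TATA box but 5 GC boxes, of which the outermost pair overlaps, and 3 CRE cores, with at least 1 GC box in 32.7% and at least 1 CRE core in 17.8% of promoters. The downstream Pparg window matches the loose C/EBP motif at -215 to -208 and at -16 to -9, a motif present in 9.56% of promoters. The windows of the other Pparg starts, not printed, have no C/EBP match. They are 82.4% G or C with 38 CpG and 63.6% G or C with 12 CpG.

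Cebpa (ENSMUSG00000034957, chromosome 7 of mm9 from 35904312 to 35906945) is a gene with 1 exon whose product holds differentiating cells out of the cell cycle and, in fat, maintains insulin sensitivity. It had 68.1, 91.8 and 166 normalized counts in Rnf40+/+ and 33.6, 37.6 and 44.4 in Rnf40-/- libraries. The genotypes did not overlap, and the Rnf40+/+ values were spread widely, with replicate 3 at 2.08 times the mean of the other two. The mean fell from 109 ± 51.1 (SD, n = 3) to 38.5 ± 5.43 (SD, n = 3), or to 35.5% of the Rnf40+/+ level, with a log2 fold change of -1.38 (SE 0.29, adjusted p = 0.0021 by limma). Without Rnf40+/+ replicate 3 the log2 fold change was -1.03 (adjusted p = 0.00455 by limma), and the mean of the remaining Rnf40+/+ libraries was 79.9. The call rests on few reads, from 33 to 208 per library. In these mixed RNA samples, fewer cells that express a gene and less RNA per cell cannot be told apart.

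Cebpb (ENSMUSG00000056501, chromosome 2 from 167514415 to 167515918) encodes the early factor that responds to cyclic AMP, insulin and inflammatory signals. Its counts were 1121, 1090.1 and 1715 in Rnf40+/+ and 1001, 1028 and 936 in Rnf40-/- libraries. All Rnf40-/- values lay below all Rnf40+/+ values, by a small margin for replicates 1 and 2 and a wide one for replicate 3. The log2 fold change was -0.37 (SE 0.14, adjusted p = 0.0452 by limma), with means of 1309 ± 352 and 988 ± 47.5 (SD, n = 3 each). Without Rnf40+/+ replicate 3 it was -0.16 (adjusted p = 0.097 by limma), and the call was also lost with any Rnf40-/- library left out (adjusted p between 0.0848 and 0.137), with upper-quartile scaling (0.0707) and with no filter on low counts (0.0574). Cebpb overlaps in part with Tmem189, a gene of the opposite strand that starts within it, at 167515322. Tmem189 was itself lower (log2 fold change -0.45, adjusted p = 0.00161 by limma). The library kit keeps the strand, but whether the counting used it is not stated, and reads of the 2 genes may have been mixed.

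Cebpd (ENSMUSG00000071637, chromosome 16 from 15887379 to 15888559) encodes the partner of C/EBPβ in the early phase, which glucocorticoids induce. It had 911, 897 and 1211 normalized counts in Rnf40+/+ and 1234, 1181 and 1091 in Rnf40-/- libraries. Rnf40+/+ replicate 3 again lay above the other two and inside the Rnf40-/- range. The log2 fold change was 0.23 with a 95% interval from -0.0093 to 0.46 (adjusted p = 0.106 by limma). Without that library it was 0.37 (adjusted p = 0.00157), and with upper-quartile scaling it was 0.28 (adjusted p = 0.0499), so the call of Cebpd depends on both choices.

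The balance between the 2 early factors was also compared within each library. The ratio and the shares below rest on the Cebpb count, which may hold reads of Tmem189. There were 0.813, 0.823 and 0.706 reads of Cebpd for each read of Cebpb in Rnf40+/+ and 1.23, 1.15 and 1.17 in Rnf40-/- libraries. This ratio did not overlap between the genotypes, and Rnf40+/+ replicate 3 had the lowest value. Shares were taken of the summed reads of Cebpa, Cebpb, Cebpd and Cebpg per kilobase of the longest annotated transcript. They depend on that choice through Cebpg. With its mean transcript length, Cebpg had 17.0 reads per kilobase per 1000000 reads in Rnf40+/+ and 17.6 in Rnf40-/- MEFs. With its longest transcript it had 10.1 and 10.5, so the mean length would lower the other shares. With the longest transcripts, Cebpd made up between 41.9% and 44.1% in Rnf40+/+ and between 52.0% and 54.4% in Rnf40-/- libraries. Cebpb went from 43.7% ± 2.51 to 35.3% ± 0.775, Cebpa from 2.02% ± 0.551 to 0.789% ± 0.145 and Cebpg from 10.9% ± 1.73 to 10.8% ± 1.03 (SD, n = 3). For 3 libraries a group the smallest exact permutation p is 0.1, and no test of these shares is quoted.

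**Figure D2:**
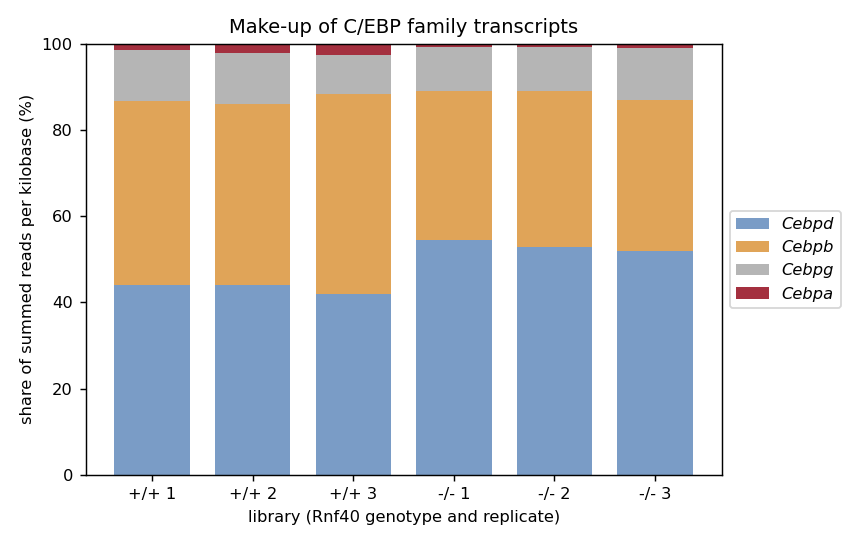
Share of the summed reads per kilobase of the longest annotated transcript (%, vertical axis) that came from Cebpd, Cebpb, Cebpg and Cebpa. Each of the 6 libraries is named by Rnf40 genotype and replicate. The Cebpb part may hold reads of Tmem189. The blue Cebpd part covers 41.9% to 44.1% of the bar in Rnf40+/+ and 52.0% to 54.4% in Rnf40-/- libraries, and the red Cebpa part at the top is thinner in all 3 Rnf40-/- libraries.

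Of the whole C/EBP family of 6 genes, Cebpe had no read and 5 were tested, of which 3 were lower and 0 higher, beside 24.1% and 23.3% of all genes. The third lower gene was Ddit3, which encodes CHOP, a stress-induced family member that blocks the DNA binding of its partners. It had 1649, 1672 and 2812 normalized counts in Rnf40+/+ and 1274, 1230.5 and 1361 in Rnf40-/- libraries (log2 fold change -0.62, adjusted p = 0.00729 by limma). Cebpg, which encodes a member without an activation domain, had a log2 fold change of -0.07 (adjusted p = 0.455). Without Rnf40+/+ replicate 3 the family held 2 lower genes and 1 higher gene.

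Pparg (ENSMUSG00000000440, chromosome 6 from 115311239 to 115440419) encodes the nuclear receptor that is both needed and sufficient for fat cell formation. It had 68.1, 102 and 95.8 normalized counts in Rnf40+/+ and 89.7, 77.2 and 74.6 in Rnf40-/- libraries, and the genotypes overlapped. The log2 fold change was -0.12 with a 95% interval from -0.55 to 0.31 (adjusted p = 0.647 by limma). Values as far apart as that interval are possible at this depth of 57 to 120 reads per library. The counts cover the whole gene and do not separate its transcription starts. Of its relatives, Ppard, which encodes the widely expressed receptor, had a log2 fold change of 0.03 (adjusted p = 0.799), and Ppara, which encodes the receptor of liver and heart, one of -0.26 (adjusted p = 0.656) on at most 22 reads per library. Neither of these passed the test.

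Among 17 partners and coregulators of PPARγ, 14 were tested, 4 were higher and 1 was lower, beside 23.3% and 24.1% of all genes, with a median log2 fold change of 0.05. Ncoa3, which encodes a p160 coactivator, had 604 ± 27.2 normalized counts in Rnf40+/+ and 899 ± 57.1 in Rnf40-/- MEFs (SD, n = 3; log2 fold change 0.57, adjusted p = 0.000115 by limma). Crebbp, which encodes the acetyltransferase CBP, and Ncoa2 had log2 fold changes of 0.42 and 0.34 (adjusted p = 0.00954 and 0.0112 by limma). The lower gene was Prdm16, a determinant of brown fat, with a log2 fold change of -0.61 (adjusted p = 0.0359 by limma), a call that was lost without Rnf40+/+ replicate 1 (-0.51, adjusted p = 0.104 by limma). Rxra, which encodes the obligate partner of PPARγ, had 1221 ± 161 and 1212 ± 55.0 normalized counts (SD, n = 3; adjusted p = 0.984 by limma).

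Of 21 tested factors that promote adipocyte formation, 4 were higher, 1 was lower and 16 did not pass, beside 23.3% and 24.1% of all genes, with a median log2 fold change of 0.10. Klf5, which encodes a factor that cooperates with C/EBPβ on Pparg, had 46.6, 66.3 and 40.7 normalized counts in Rnf40+/+ and 110.1, 122 and 76.5 in Rnf40-/- libraries (log2 fold change 1.00, adjusted p = 0.00488 by limma). Nr3c1, which encodes the glucocorticoid receptor, rose by 0.61 and Klf4 by 0.47 in log2 units (adjusted p = 3.87e-05 and 0.000223 by limma). Egr2, also called Krox20, fell by 1.39 in log2 units (adjusted p = 0.00128 by limma), from 79.3 ± 19.6 to 29.6 ± 7.45 normalized counts (SD, n = 3 each). Without Rnf40+/+ replicate 3 the lower genes were 2, the other being Bmp2 (log2 fold change -0.94, adjusted p = 0.0222 by limma).

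Of 20 restraining factors tested, 11 were lower, 3 were higher and 6 did not pass, with a median log2 fold change of -0.26, beside 24.1% lower and 23.3% higher of all genes. Dlk1 encodes Pref-1, the preadipocyte protein that is lost as fat cells form. It had 1708, 1750 and 1624 normalized counts in Rnf40+/+ and 567, 573 and 654 in Rnf40-/- libraries, so that the groups were far apart and each was tight (log2 fold change -1.50, adjusted p = 5.89e-08 by limma). Wisp2, which encodes a secreted protein of the WNT pathway, had 1845, 2121 and 1694 against 611, 556 and 694 (log2 fold change -1.60, adjusted p = 2.16e-07). Trib3, which encodes a stress-induced pseudokinase, and Hes1, which encodes a target of Notch signaling, had log2 fold changes of -1.48 and -0.88 (adjusted p = 2.23e-05 and 2.74e-06). The 3 higher genes were Wnt10b, Foxo1 and Ctnnb1, with log2 fold changes of 0.69, 0.48 and 0.32, so that the list moved in both directions. Ddit3 is also in the C/EBP family, and Twist1 is also among the fibroblast markers, of which 13 of 15 were lower.

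The genes of fatty acid uptake and storage are shown next, and their promoters are given because Cd36 and Plin2 moved in opposite directions and Adipoq had no reads. The capitals follow the same search.
Cd36, chr5:17835897-17836146, minus strand: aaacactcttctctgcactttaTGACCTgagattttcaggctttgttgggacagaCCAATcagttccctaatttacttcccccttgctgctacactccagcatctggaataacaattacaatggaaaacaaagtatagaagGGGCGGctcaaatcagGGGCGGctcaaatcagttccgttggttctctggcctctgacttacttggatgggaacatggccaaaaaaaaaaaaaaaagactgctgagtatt
Plin2, chr4:86670060-86670309, minus strand: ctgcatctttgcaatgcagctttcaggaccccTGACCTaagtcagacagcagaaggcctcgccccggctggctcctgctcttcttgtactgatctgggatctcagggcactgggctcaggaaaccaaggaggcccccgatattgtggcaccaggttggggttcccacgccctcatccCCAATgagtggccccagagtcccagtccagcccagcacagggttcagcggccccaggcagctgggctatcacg
Adipoq, chr16:23146286-23146535, plus strand: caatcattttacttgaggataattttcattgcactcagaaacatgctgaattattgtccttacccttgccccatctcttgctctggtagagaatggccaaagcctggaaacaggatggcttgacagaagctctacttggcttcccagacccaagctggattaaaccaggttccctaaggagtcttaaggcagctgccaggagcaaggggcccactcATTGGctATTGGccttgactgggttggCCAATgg
The Cd36 and Plin2 windows each hold 1 CCAAT box and 1 nuclear receptor core, at -228 to -223 in Cd36 and at -218 to -213 in Plin2. A CCAAT box was found in 33.8% and a nuclear receptor core in 14.0% of all promoters. Cd36 also has 2 GC boxes, and the Adipoq window has 3 CCAAT boxes and no CpG.

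Cd36 (ENSMUSG00000002944, chromosome 5 from 17287508 to 17394777) encodes the membrane receptor that takes up long-chain fatty acids and oxidized lipoproteins. It had 57.3, 54.0 and 56.7 normalized counts in Rnf40+/+ and 145, 149 and 166 in Rnf40-/- libraries. Of the 8 genes tested it was the tightest in Rnf40+/+, with a coefficient of variation of 3.10%, and the groups were far apart. The Rnf40+/+ values rest on 48, 53 and 71 reads, whose counting error alone exceeds that spread. The tightness is therefore not read as a trait of the gene. The mean rose from 56.0 ± 1.74 to 153 ± 11.3 (SD, n = 3 each), 2.74 times the Rnf40+/+ level, with a log2 fold change of 1.44 (SE 0.16, adjusted p = 1.81e-05 by limma). Whichever library was left out, the log2 fold change stayed between 1.38 and 1.48. Of its relatives, Scarb1, which encodes the HDL receptor, and Scarb2, which encodes a lysosomal membrane protein, had log2 fold changes of 0.03 and 0.13 (adjusted p = 0.764 and 0.255).

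Fabp4 (ENSMUSG00000062515, chromosome 3 from 10204347 to 10208576) encodes aP2, the fatty acid carrier of the fat cell cytoplasm. It had 32.2, 40.8 and 67.1 normalized counts in Rnf40+/+ and 120.3, 124 and 142 in Rnf40-/- libraries. The groups did not overlap, and Rnf40+/+ replicate 3 was the highest of its group. The mean rose from 46.7 ± 18.2 to 129 ± 11.4 (SD, n = 3 each), 2.76 times the Rnf40+/+ level, with a log2 fold change of 1.51 (SE 0.25, adjusted p = 0.000378 by limma). Leaving out 1 library gave log2 fold changes between 1.28 and 1.80.

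A relative on the same chromosome, Fabp5, lies from 10012548 to 10016607 and encodes the epidermal carrier, which macrophages also express. It moved the other way, with 569.7, 573 and 1035 normalized counts in Rnf40+/+ and 420.1, 397 and 470.2 in Rnf40-/- libraries (log2 fold change -0.70, adjusted p = 0.00864 by limma). The reads of Fabp4 per read of Fabp5 were 0.0566, 0.0712 and 0.0648 in Rnf40+/+ and 0.286, 0.313 and 0.301 in Rnf40-/- libraries. This ratio was tight within each genotype, also in Rnf40+/+ replicate 3, where both genes had their highest count among the Rnf40+/+ libraries. Fabp9, Pmp2 and Fabp12, which flank Fabp4, had at most 7.55 normalized counts in any library. Over the 10 genes of the family, 5 were tested, of which Fabp4 and the heart form Fabp3 were higher and Fabp5 was lower, beside 23.3% and 24.1% of all genes. Without Rnf40+/+ replicate 3 Fabp2 was higher too (log2 fold change 0.83, adjusted p = 0.00178 by limma). Fabp3 had 669 ± 92.6 normalized counts in Rnf40+/+ and 971 ± 46.6 in Rnf40-/- MEFs (SD, n = 3; log2 fold change 0.54, adjusted p = 0.000727).

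Lpl (ENSMUSG00000015568, chromosome 8 from 71404390 to 71431347) encodes the secreted lipase that frees fatty acids from lipoproteins. Its counts were 307, 366 and 542 in Rnf40+/+ and 445, 439 and 365 in Rnf40-/- libraries. All Rnf40-/- values lay inside the Rnf40+/+ range, whose highest value was again replicate 3. The log2 fold change was 0.08 with a 95% interval from -0.30 to 0.45 (adjusted p = 0.745 by limma), and it was -0.10 without Rnf40+/+ replicate 1 (adjusted p = 0.612) and 0.31 without Rnf40+/+ replicate 3 (adjusted p = 0.0518). An annotated Lpl transcript shares 99 bases at 100% identity with a transcript of Cflar, and how reads that match both were counted is not stated.

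Of the 10 tested genes that process, anchor or take up LPL and its products, 3 were higher and 3 lower, beside 23.3% and 24.1% of all genes, with a median log2 fold change of 0.04. Without Rnf40+/+ replicate 1 the higher genes were 2, and without Rnf40+/+ replicate 3 they were 4. Sel1l, which encodes an endoplasmic reticulum protein needed for LPL to leave that compartment, had 3335 ± 137 normalized counts in Rnf40+/+ and 5053 ± 102 in Rnf40-/- MEFs (SD, n = 3; log2 fold change 0.60, adjusted p = 8.78e-06 by limma). The related endothelial lipase gene Lipg had 745, 903 and 721 normalized counts in Rnf40+/+ and 1446, 1317 and 1358 in Rnf40-/- libraries (log2 fold change 0.80, adjusted p = 2.11e-05 by limma). Lmf2, a homolog of the lipase maturation factor gene, and Lrp1, which encodes a lipoprotein receptor, had log2 fold changes of -0.45 and -0.61 (adjusted p = 0.000922 and 2.71e-05). Gpihbp1, which encodes the capillary anchor of LPL, had at most 2 reads in any library.

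Of 14 tested genes of fatty acid uptake and activation, 7 were higher and 2 lower, beside 23.3% and 24.1% of all genes, and Cd36 and Fabp4 are 2 of the 7. The median log2 fold change was 0.23. Slc27a3, which encodes a fatty acid transport protein with acyl-CoA synthetase activity, had 185, 227 and 359 normalized counts in Rnf40+/+ and 678, 486 and 619 in Rnf40-/- libraries (log2 fold change 1.25, adjusted p = 0.000346 by limma). Among the acyl-CoA synthetases, which trap fatty acids in the cell, Acsl6 rose by 1.15 and Acsl1 by 0.68 on the log2 scale, whereas Acsl3, which sits on nascent lipid droplets, fell by 0.82 (adjusted p = 0.0198, 0.000238 and 2.93e-05 by limma). Without Rnf40+/+ replicate 1 Acsl6 lost its call (log2 fold change 0.76, adjusted p = 0.0515 by limma).

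Plin2 (ENSMUSG00000028494, chromosome 4 from 86294290 to 86315964) encodes perilipin 2, the lipid droplet coat of most cells that are not fat cells. It had 2131, 2502 and 2731 normalized counts in Rnf40+/+ and 1664, 1569.6 and 1788 in Rnf40-/- libraries. The groups did not overlap, and Rnf40+/+ replicate 3 was the highest of its group, at 1.18 times the mean of the other two. The mean fell from 2455 ± 303 to 1674 ± 110 (SD, n = 3 each), or to 68.2%, with a log2 fold change of -0.55 (SE 0.09, adjusted p = 0.000395 by limma). Plin3, the other widely expressed perilipin gene, fell alongside it, from 1458 ± 143 to 1004 ± 73.7 (log2 fold change -0.54, adjusted p = 0.00034). The reads of Plin2 per read of Plin3 were 1.68 ± 0.053 in Rnf40+/+ and 1.67 ± 0.015 in Rnf40-/- libraries (SD, n = 3 each).

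The fat cell perilipin gene Plin1 had 1 read in 1 library. Of 12 lipid droplet genes tested, 4 were higher and 3 lower, beside 23.3% and 24.1% of all genes, with a median log2 fold change of -0.04. The higher genes were Bscl2, which encodes seipin, a protein of droplet budding, and the lipolysis genes Pnpla2, Abhd5 and Mgll. Bscl2 had 797, 865 and 937 normalized counts in Rnf40+/+ and 1432, 1288 and 1600.4 in Rnf40-/- libraries (log2 fold change 0.73, adjusted p = 5.02e-05 by limma). Pnpla2, which encodes the triglyceride lipase ATGL, rose by 0.44 in log2 units (adjusted p = 0.000238). The coat gene Plin4 and the gene of the hormone-sensitive lipase, Lipe, did not pass the test, with log2 fold changes of -0.29 and -0.17 (adjusted p = 0.413 and 0.499 by limma).

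**Figure D3:**
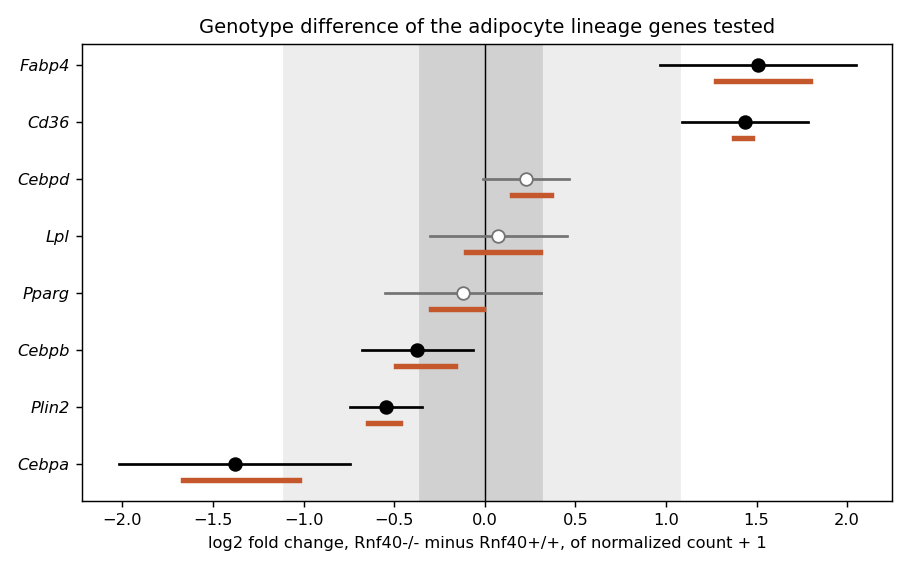
Log2 fold change (horizontal axis, Rnf40-/- minus Rnf40+/+) of the 8 adipocyte lineage genes tested, with filled points for an adjusted p under 0.05 and open points above it, black or grey lines for the 95% interval and orange bars for the range over the fits that leave out 1 library. The dark and light bands hold the middle of all genes tested (percentiles 25 to 75, -0.35 to 0.32, and percentiles 5 to 95, -1.11 to 1.08), and Fabp4, Cd36 and Cebpa lie outside both.

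Adipoq (ENSMUSG00000022878, chromosome 16 from 23146609 to 23158101) had 0 reads in all 6 libraries, which allows up to 3 reads in each, or between 2.40 and 3.58 normalized counts. Of 25 genes of mature fat cells, 7 had at most 3 reads in every library and 17 were tested, of which 4 were higher and 5 lower, beside 23.3% and 24.1% of all genes. Nat8l, which encodes the N-acetylaspartate synthase, had the largest change, with 25.1, 31.6 and 35.9 normalized counts in Rnf40+/+ and 185, 181 and 215 in Rnf40-/- libraries (log2 fold change 2.62, adjusted p = 7.24e-07 by limma). Adrb3, which encodes the adrenergic receptor through which fat is mobilized, had 72.8, 76.5 and 41.5 against 145, 139 and 146 (log2 fold change 1.21, adjusted p = 0.000855). Slc2a4, which encodes the insulin-regulated glucose transporter, and Dgat2, which encodes an enzyme of triglyceride synthesis, fell by 1.03 and 0.91 in log2 units (adjusted p = 0.0344 and 0.000842). The call of Slc2a4 was lost without Rnf40+/+ replicate 1 (adjusted p = 0.0767 by limma) and without replicate 3 (0.112). Plin4, which encodes another droplet coat protein, had between 35.8 and 61.2 normalized counts in Rnf40+/+ libraries. The receptors for adiponectin were expressed, Adipor2 being higher by 0.20 in log2 units (adjusted p = 0.0278 by limma) and Adipor1 having 4681 ± 200 and 4625 ± 102 normalized counts (SD, n = 3).

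Of 17 tested PPAR target genes of many tissues, 6 were higher and 6 lower, beside 23.3% and 24.1% of all genes. Abca1, which encodes a cholesterol exporter, was higher (log2 fold change 0.93, adjusted p = 2.01e-06 by limma). Ucp2, which encodes an uncoupling protein that macrophages also express, Ech1 and Ehhadh, both of which encode enzymes of fatty acid oxidation, were lower, with log2 fold changes of -1.24, -0.96 and -0.83 (adjusted p = 0.000238, 3.52e-06 and 0.0152). Plin2 is 1 of the 6 lower genes of this list.

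**Figure D4:**
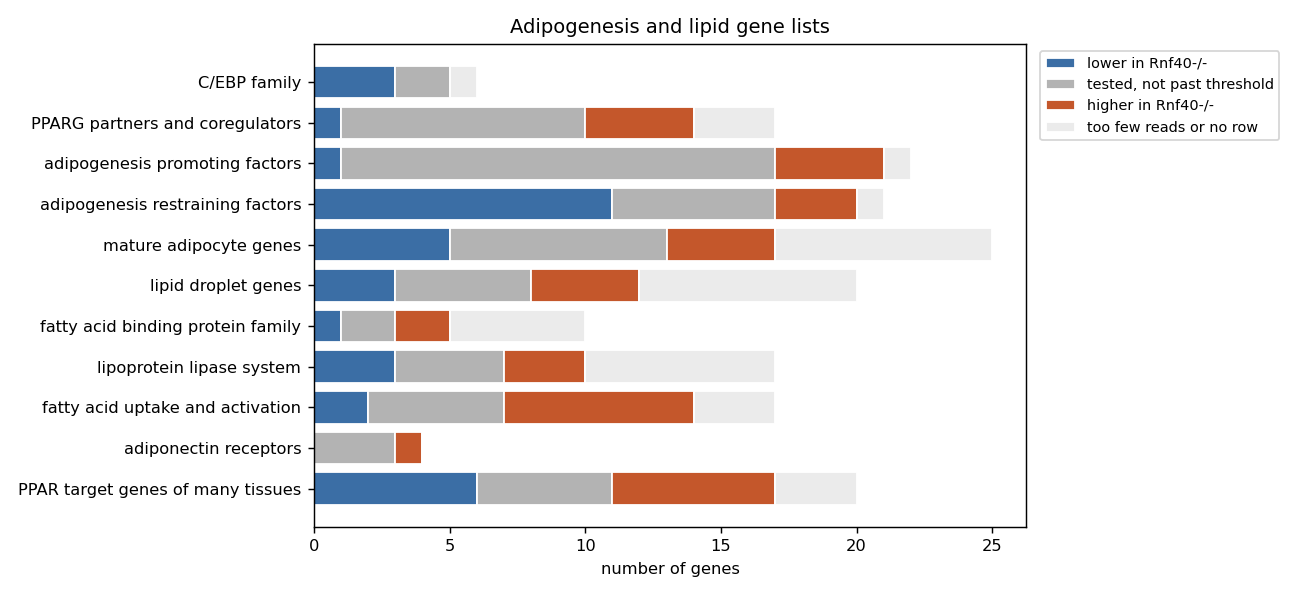
Number of genes (horizontal axis) in each list of adipogenesis and lipid genes that were lower in Rnf40-/- MEFs (blue), tested without passing an adjusted p under 0.05 (dark grey), higher (orange) or not tested (light grey). Restraining factors hold 11 lower and 3 higher genes, and fatty acid uptake and activation 2 lower and 7 higher.

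Levels of different genes were compared as reads per kilobase of the longest annotated transcript per 1000000 reads on genes. In Rnf40+/+ MEFs Plin2 was the highest at 62.2 ± 6.68, followed by Cebpb at 41.7 ± 10.9 and Cebpd at 40.9 ± 6.93 (SD, n = 3), whose ranges overlapped. Far below came Lpl at 4.71 ± 1.37, Fabp4 at 3.50 ± 1.33, Pparg at 2.28 ± 0.423 and Cebpa at 1.97 ± 0.909, each of which overlapped its neighbour in this order, and Cd36 was the lowest at 0.753 ± 0.0371. The early C/EBP factors and the general droplet coat were thus the abundant members, and the factors of late adipogenesis were scarce. In Rnf40-/- MEFs Cebpd stood first at 51.8 ± 3.62, overlapping Plin2 at 46.3 ± 2.49, followed by Cebpb at 34.4 ± 2.04. Fabp4 at 10.6 ± 0.831 now lay above Lpl at 5.30 ± 0.613, with no overlap, and Cd36 at 2.25 ± 0.145 lay within the range of Pparg at 2.27 ± 0.234. Cebpa was the lowest at 0.765 ± 0.101. With the mean transcript length in place of the longest, Plin2 stood first in Rnf40-/- MEFs as well, at 102 ± 5.47.

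Markers of other cells also differed between the genotypes. Of the 23 macrophage markers tested, 12 were lower and 3 higher in Rnf40-/- MEFs, beside 24.1% and 23.3% of all genes. The summed normalized count of the 24 macrophage markers in the table was between 9544 and 17434 in Rnf40+/+ and between 5881 and 6752 in Rnf40-/- libraries. None of the defining markers tested was at 0, Lyz2 having between 2093 and 7440.3 normalized counts, while Adgre1, the F4/80 gene, had 259, 259 and 279 in Rnf40+/+ and 299.8, 296 and 287 in Rnf40-/- libraries. Without Rnf40+/+ replicate 3, 12 markers were lower and 2 higher, beside 46.7% of all genes changed in either direction. Cx3cr1, Cd52, C1qc and C1qa then fell by 2.18, 1.56, 1.40 and 1.31 in log2 units. Ptprc and Cd14 rose by 1.52 and 0.69, so the sum does not describe every marker. In Rnf40+/+ replicate 3 the count was the highest of its group for 18 of the 23 macrophage markers and for 6 of the 8 adipocyte lineage genes tested, as it was for 34.3% of all genes. Per 1000 macrophage marker counts, Cebpa had 7.13, 9.04 and 9.53 in Rnf40+/+ and 5.27, 6.39 and 6.57 in Rnf40-/- libraries, a narrower gap than in its counts, still without overlap. Cebpb had 117, 107 and 98.3 against 157, 175 and 139, and thus the opposite order on this scale, as had Plin2, with 223, 247 and 157 against 261, 267 and 265. The macrophage sum was itself lower in every Rnf40-/- library, which raises all values on this scale there. A gene that fell by less than the sum therefore reverses its order by arithmetic alone. The part of macrophage RNA in the lower counts of Cebpa, Cebpb and Plin2 was not tested. On the same scale Fabp4 had 3.38, 4.02 and 3.85 against 18.8, 21.1 and 21.0, close together within Rnf40+/+, where its counts were highest in replicate 3 as well, and Cd36 had 6.01, 5.33 and 3.25 against 22.7, 25.4 and 24.6. The part of macrophage RNA in the levels of Fabp4 and Cd36 was not tested either.

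**Figure D5:**
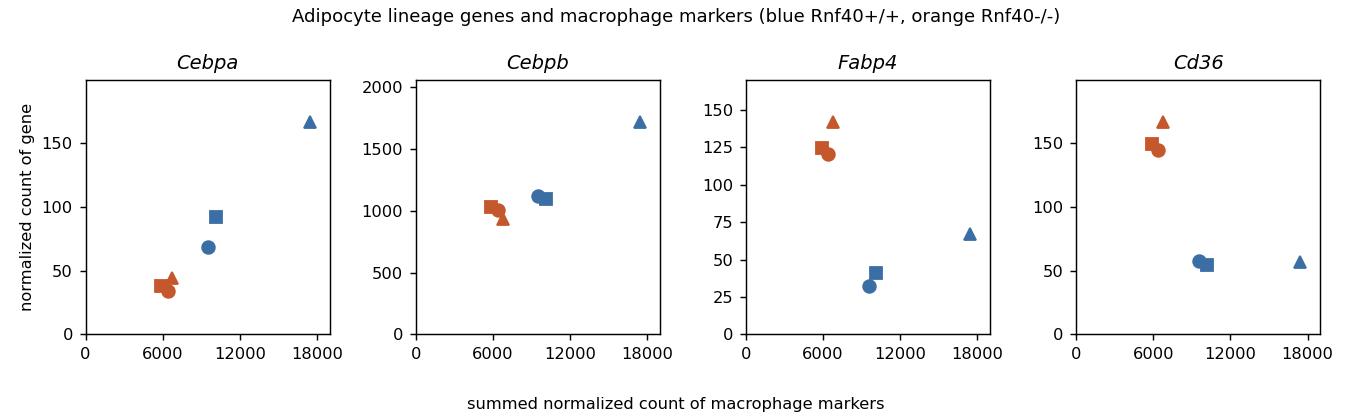
Normalized counts of Cebpa, Cebpb, Fabp4 and Cd36 (vertical axes, from 0) against the summed normalized count of the macrophage markers (horizontal axes) in the 3 Rnf40+/+ (blue) and 3 Rnf40-/- libraries (orange), with circles, squares and triangles for replicates 1, 2 and 3. The blue triangle of Rnf40+/+ replicate 3 is the highest in Cebpa and Cebpb at a macrophage sum of 17434, and Cd36 lies between 54.0 and 57.3 in all 3 Rnf40+/+ libraries.

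Of 10 endothelial markers tested, 4 were higher, 1 was lower and 5 did not pass, beside 23.3% and 24.1% of all genes. The summed count of the 15 endothelial markers in the table was between 905 and 1131 in Rnf40+/+ and between 1264 and 1401 in Rnf40-/- libraries. Pecam1 had 4.78, 4.08 and 2.40 normalized counts in Rnf40+/+ and 28.6, 35.5 and 18.9 in Rnf40-/- libraries, and Cdh5 had 2.39, 5.10 and 0.80 against 31.6, 39.7 and 23.6. Kdr had 21.5, 26.5 and 34.3 against 74.4, 117 and 62.3 (log2 fold change 1.56, adjusted p = 0.000705 by limma), while Emcn fell by 1.15 in log2 units (adjusted p = 0.0023). Without Rnf40+/+ replicate 1 the counts were 5 higher and 2 lower. In Rnf40+/+ libraries Pecam1 and Cdh5 were near the limit of detection, and Cldn5 had at most 1 read and Sox17 at most 3 reads per library. The part of endothelial RNA in the rise of Cd36 and Fabp4 was not tested. Of 5 epithelial markers tested, 1 was higher and 0 lower, beside 23.3% and 24.1% of all genes. Of 6 brown adipocyte markers tested, Zic1 was higher and Prdm16 lower, beside 23.3% and 24.1% of all genes. Ucp1 had at most 2 reads per library. Without Rnf40+/+ replicate 3 Tmem26 was higher too (log2 fold change 0.98, adjusted p = 0.00664 by limma), and without replicate 1 Prdm16 lost its call (adjusted p = 0.104 by limma).

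The genes with the most similar pattern over the 6 libraries were ranked by Pearson's r of log2 values among 13044 genes with a mean above 50, as a description in which 2 groups of 3 libraries make r follow the genotype difference. For Fabp4 they were Mgll (r = 0.999), which encodes the last lipase of triglyceride breakdown, Metrnl (r = 0.998), which encodes a hormone-like secreted protein of muscle and fat, and Foxo4 (r = 0.997). All 3 shared with Fabp4 the order of the libraries, highest in Rnf40-/- replicate 3 and lowest in Rnf40+/+ replicate 1. For Cebpa they were Unc119, Ucp2 and Gpr180 (r = 0.995, 0.995 and 0.994), and Ucp2 had 497, 578 and 958 normalized counts in Rnf40+/+ and 262, 261 and 306 in Rnf40-/- libraries, with the same high value in Rnf40+/+ replicate 3. For Pparg, whose genotypes overlapped, the closest were 6620401K05Rik, Arl2bp and 4921524J17Rik (r = 0.957, 0.955 and 0.950).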

How the data were processed

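RNA was measured in 3 Rnf40+/+ and 3 Rnf40-/- libraries of MEFs, prepared with a directional kit. Reads were mapped by the authors against the mouse mm9 transcriptome, and their counts were scaled with DESeq. The submitters' processing notes name Bowtie2 2.1.0 and DESeq 1.14.0, and the counting tool and its use of strand are not given in the sources used here. The deposited signal is thus a normalized count, the reads of a gene over the size factor of the library. The smallest value of a library was worth 1 read, and dividing by it gave whole reads, within 0.01 read, for 100% of the values above 0. The fit used limma 3.58.1 (lmFit, eBayes with a trend) in R 4.3.3 on log2(normalized count + 1) with genotype as the only term, and the pseudocount of 1 pulls the fold changes of scarce genes towards 0. Genes were kept by filterByExpr of edgeR 4.0.16 on the recovered reads, which left 16378 of 29955, 7410 having no read. Depth ranged from 17053436 to 26344170 reads on genes, and intervals for single counts cover counting error only. No pair of libraries was a duplicate (chi-square per gene from 5.33 to 28.8 within and from 75.5 to 116 between genotypes). Gene positions and transcript lengths came from GENCODE M1 (NCBIM37, mm9). The promoters came from RefSeq, for 6 of the 9 genes.

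The 9 genes and all gene lists were chosen with earlier results of these data known, and the lists are described by counts and medians without a test of the list. Named from each list were the genes that are the closest relatives of the 9. So were up to 4 genes per list, ranked by absolute log2 fold change among those with an adjusted p under 0.05 and a mean above 15. The exception was the fibroblast markers, of which only Col1a2 was named by this rule. Other genes were named after their values were seen. Alternatives were edgeR's quasi-likelihood test, the Wald test of DESeq2 1.42.0, other scalings, filters, pseudocounts (0.1 and 10), a replicate block, other thresholds and each library left out. On simulated data for this comparison (16378 genes, 200 of them changed) limma recovered 199 with 9 false calls, edgeR 198 with 9 and DESeq2 198 with 13. The simulation gave every gene the same small dispersion, made only large changes in well-expressed genes and had no outlying library. It therefore does not measure how well smaller changes, or those of genes with a wide spread, are recovered.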

Additional observations from a re-analysis of the deposited data

How the results depend on the processing

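The calls of Cebpa, Fabp4, Plin2 and Cd36 held under all 16 alternatives run for each of them, and Pparg passed under none of its 16. The log2 fold change of Cebpa lay between -1.66 and -1.03 (adjusted p at most 0.0103), that of Fabp4 between 1.28 and 1.80, that of Plin2 between -0.64 and -0.47, that of Cd36 between 1.31 and 1.48 and that of Pparg between -0.30 and -0.0093. Cebpb lost its call under 6 of 16 alternatives, Cebpd gained one under 2, and Lpl had the opposite sign, at -0.10, without Rnf40+/+ replicate 1, its log2 fold changes with 1 library left out reaching up to 0.31; for Cebpb and Cebpd, the loss or gain came with fewer libraries, another scaling or, for Cebpb, more genes tested, and the cause was not tested further. The criteria of the study left 696 genes higher and 934 lower, against 3809 and 3955 by the adjusted p alone, and 1 of the 9 genes was lower in place of 3, since Cebpb and Plin2 changed by less than the minimum of 1. The replicate numbers did not pair the libraries (correlation of same-numbered deviations 0.035, 0.0026 and 0.061), and with them as a replicate block 4021 genes were higher and 4196 lower, with 2 and 3 of the adipocyte lineage genes as before. Leaving out Rnf40+/+ replicate 3 or replicate 1, alternatives chosen after seeing the data, gave 0 to 1 higher gene of the C/EBP family, 0 to 1 lower PPARγ partner, 1 to 2 lower promoting factors, 1 to 2 lower endothelial markers, 1 to 2 higher and 0 to 1 lower brown adipocyte markers, 0 to 1 higher fibroblast marker and 1 to 2 higher epithelial markers. With the mean transcript length the levels of Lpl were 7.26 and 8.17 and those of Plin2 136.5 and 101.6 in Rnf40+/+ and Rnf40-/- MEFs. Depth limits Pparg, Cebpa, Cd36 and Fabp4 most, with 27 to 208 reads per library.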
